A study of Homo sapiens with 9 samples.

Results

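The genes described here carry out the tricarboxylic acid cycle and mitochondrial fatty acid oxidation, together with the entry of pyruvate into the cycle and the exchange of its acids with glutamate and aspartate. They are 42 of the 60675 genes in the count table, taken as a list of symbols matched to Ensembl identifiers, and the rule uses no measured value, although the list was drawn up with results of these data known. Of the 42, 25 serve pyruvate entry, the cycle and amino acid exchange, and 17 serve fatty acid oxidation. RNA was sequenced from 3 subclones of SK-MEL-5, a melanoma cell line of human origin with a mutated BRAF gene. Each subclone is a clone grown in drug-free medium from a cell isolated by limiting dilution of the parental line, and the groups are SC10, SC07 and SC01, each untreated and each with 3 libraries of total RNA. The labels say that the clones were chosen by their initial response to PLX-4720, a BRAF inhibitor, but not which clone responded in which way. The comparison therefore asks how these genes differ between untreated sister clones. Nothing in the labels says whether a clone's 3 libraries were made from different cultures. The p-values rest on the spread among these libraries alone, and that spread may be technical. With 1 clone to a group, clone and batch cannot be told apart.

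The cycle takes up acetyl-CoA, burns its carbon to carbon dioxide and hands the electrons to the respiratory chain as NADH and, through succinate dehydrogenase, as ubiquinol. Acetyl-CoA comes from pyruvate through the pyruvate dehydrogenase complex or from fatty acids, which are carried into mitochondria as carnitine esters and shortened in rounds of beta-oxidation. Several steps exist in a mitochondrial and a cytosolic form, and the cytosolic malate dehydrogenase and aspartate aminotransferase form, with their mitochondrial partners, the shuttle that brings reducing power from cytosolic NADH into mitochondria. The coactivator PGC-1alpha, encoded by PPARGC1A, raises the expression of many of these genes, and a group of melanomas with high PPARGC1A, in which the lineage factor MITF can switch it on, is known for oxidative metabolism.

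Library depth ran from 30224066 to 39454087 counts. Values are counts per 1000000 counts of a library (CPM), scaled by edgeR's TMM method, and a gene is said to rise or fall where edgeR's quasi-likelihood test gave a Benjamini-Hochberg adjusted p under 0.05 over the 18009 genes tested. The 42 genes all passed the filter on low counts that precedes the test. SC10 replicate 3 stood apart from the other SC10 libraries, since its counts differed from theirs by a chi-square of 9.47 to 10.5 for each degree of freedom, beside 2.47 to 5.61 for other pairs within a clone and 55 to 172 for pairs of different clones. For that reason counts are also given without it. Melanocyte markers were abundant in every library, with 7 genes summing to between 15150 and 15370 CPM in SC10, between 24350 and 24850 CPM in SC07 and between 10720 and 11380 CPM in SC01, although SOX10, a defining gene of the lineage, was at 0 counts throughout. How reads were assigned to genes is not fully given in the sources used here, so 0 counts do not show that SOX10 RNA was absent. The 6 fibroblast markers summed to between 335 and 371 CPM in SC10, 427 and 489 CPM in SC07 and 132 and 137 CPM in SC01, nearly all of it LUM at 350.1, 462 and 131 CPM on average. Keratinocyte markers, with KRT1 at 0 counts, summed to at most 27.2 CPM, endothelial ones to at most 24.3 CPM and immune ones to at most 3.92 CPM. In such bulk RNA fewer cells of a type and less RNA per cell cannot be told apart. The part of these markers in the results was not tested.

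Most of the 42 genes were more strongly expressed in SC10 and SC07 than in SC01. In SC10 against SC01, 31 of the 42 rose (73.8%), where 33.5% of all genes tested did, and 4 fell, where 32.4% of all genes did. In SC07 against SC01, 33 rose (78.6%), where 31.5% of all genes did, and 3 fell, where 30.5% did. The rise was at least 2-fold for 12 of the 42 in SC10 and for 19 in SC07, against 11.2% and 9.15% of all genes tested. The median log2 change of the 42 genes was 0.63 in SC10 and 0.80 in SC07, against -0.01 for all genes in either comparison. Both comparisons use the same SC01 libraries.

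The gain covered both pathways. Among the 17 fatty acid oxidation genes, 12 rose and 1 fell in SC10 with a median of 0.58, and in SC07 14 rose and 3 did not pass the threshold, with a median of 1.0. Among the 25 genes of the cycle, pyruvate entry and amino acid exchange, 19 rose and 3 fell in each clone, with medians of 0.63 in SC10 and 0.72 in SC07. In all, 31 genes rose in both clones, and SLC25A20 and HADH rose in SC07 without passing the threshold in SC10. The 9 that rose in neither were PC, IDH2, IDH3B, SUCLG2, MDH2, GLUD1, CPT1A, CPT1B and ETFB. Tested among the 3 clones together, 38 of the 42 differed, where 76.3% of all genes did, the exceptions being SUCLG2, CPT1A, CPT1B and SLC25A20. Without SC10 replicate 3, 31 of the 42 rose and 5 fell in SC10 against SC01.

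**Figure D1:**
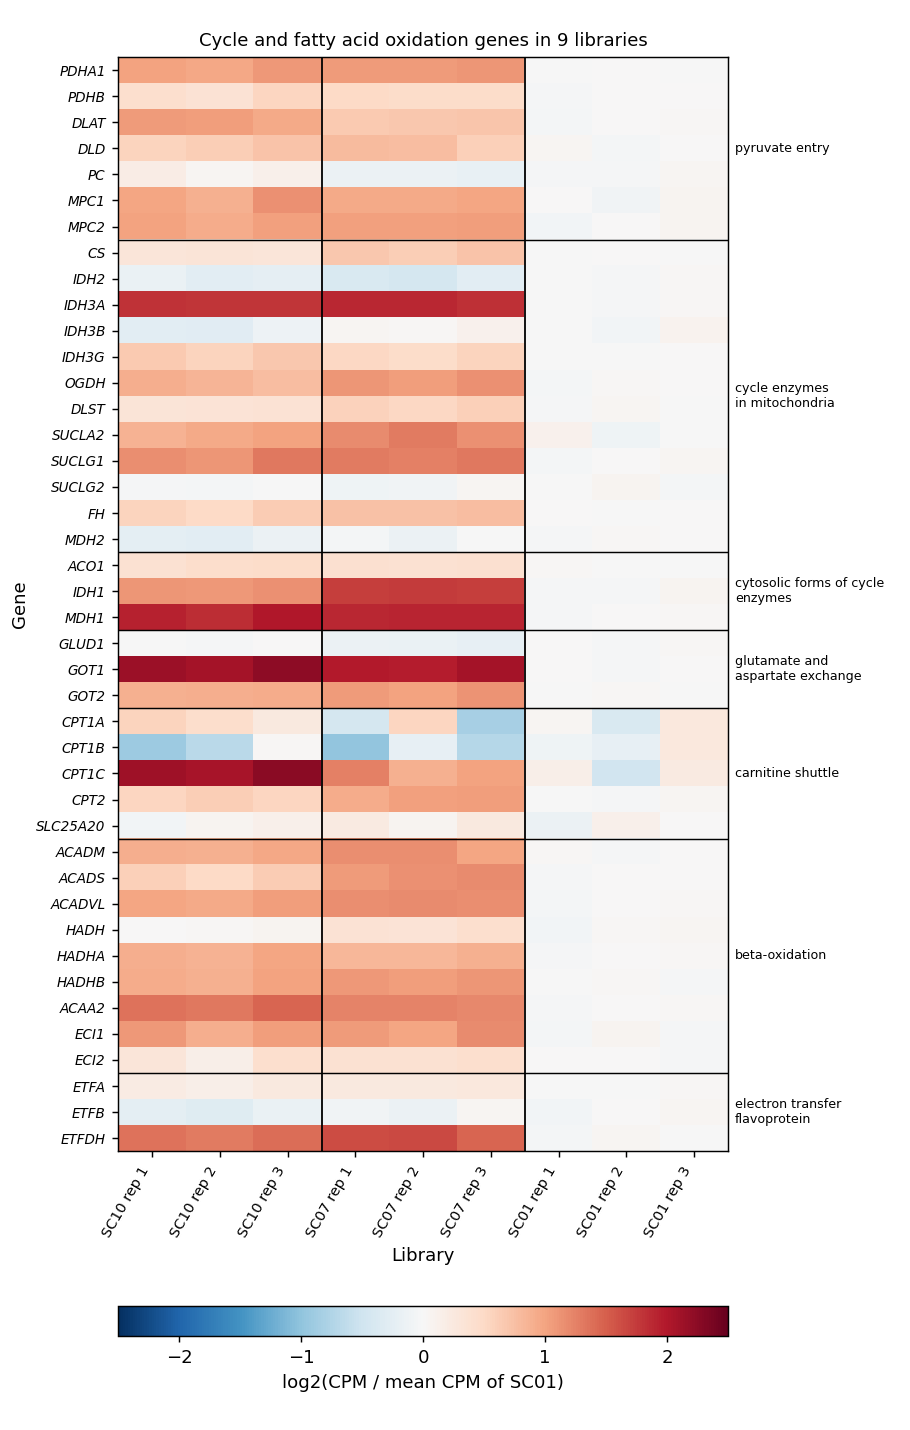
Each row is a gene and each column a library, and the colour is log2 of the library's CPM over the gene's mean CPM in SC01, grouped by role. The 3 SC10 and 3 SC07 columns are red for most rows, and the pale or blue rows include CPT1A, CPT1B, IDH2, IDH3B, SUCLG2, MDH2, GLUD1 and ETFB.

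The promoters of genes that moved apart within an enzyme are shown next, since IDH3A and IDH3B, and MDH1 and MDH2, are partners with unlike changes, SUCLA2 holds a match to the ERR-type site and HADHA shares its promoter with HADHB. Each run is the 250 bases before the start in RefSeq's GRCh38.p14 annotation, read 5′ to 3′ on the gene's strand. Capitals mark motif matches in IDH3B and MDH2 (CCGGAAG, the ETS site of the GABP type) and in SUCLA2 (AAGGTCA, the nuclear receptor site of the ERR type), and in HADHA the bases that also lie in the window of HADHB on the other strand.
IDH3A, chr15:78149112-78149361, plus strand: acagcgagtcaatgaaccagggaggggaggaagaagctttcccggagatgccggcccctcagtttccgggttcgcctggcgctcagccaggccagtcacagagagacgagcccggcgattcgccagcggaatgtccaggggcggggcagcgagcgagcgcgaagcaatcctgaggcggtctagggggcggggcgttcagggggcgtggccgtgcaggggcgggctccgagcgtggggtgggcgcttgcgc
IDH3B, chr20:2664217-2664466, minus strand: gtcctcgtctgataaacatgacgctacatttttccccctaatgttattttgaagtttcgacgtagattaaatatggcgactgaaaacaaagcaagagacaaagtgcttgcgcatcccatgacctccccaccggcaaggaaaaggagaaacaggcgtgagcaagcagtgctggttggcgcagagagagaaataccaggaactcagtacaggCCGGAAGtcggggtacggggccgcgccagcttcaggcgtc
MDH1, chr2:63588713-63588962, plus strand, the first of its 2 windows: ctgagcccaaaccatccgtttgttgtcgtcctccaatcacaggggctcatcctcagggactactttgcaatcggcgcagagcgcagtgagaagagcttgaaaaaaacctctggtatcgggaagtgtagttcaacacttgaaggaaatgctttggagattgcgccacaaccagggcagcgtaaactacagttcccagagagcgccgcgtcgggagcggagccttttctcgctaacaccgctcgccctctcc
MDH2, chr7:76047856-76048105, plus strand: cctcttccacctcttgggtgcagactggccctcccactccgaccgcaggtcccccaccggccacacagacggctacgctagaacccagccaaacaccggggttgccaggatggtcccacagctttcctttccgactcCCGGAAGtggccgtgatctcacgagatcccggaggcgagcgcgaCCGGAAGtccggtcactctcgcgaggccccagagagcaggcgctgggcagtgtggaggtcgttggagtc
SUCLA2, chr13:48001274-48001523, minus strand: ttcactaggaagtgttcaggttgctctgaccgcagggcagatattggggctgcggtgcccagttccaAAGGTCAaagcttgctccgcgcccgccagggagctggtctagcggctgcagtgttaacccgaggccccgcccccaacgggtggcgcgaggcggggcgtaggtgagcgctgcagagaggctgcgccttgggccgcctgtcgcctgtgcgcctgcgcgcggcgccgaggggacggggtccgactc
HADHA, chr2:26244633-26244882, minus strand: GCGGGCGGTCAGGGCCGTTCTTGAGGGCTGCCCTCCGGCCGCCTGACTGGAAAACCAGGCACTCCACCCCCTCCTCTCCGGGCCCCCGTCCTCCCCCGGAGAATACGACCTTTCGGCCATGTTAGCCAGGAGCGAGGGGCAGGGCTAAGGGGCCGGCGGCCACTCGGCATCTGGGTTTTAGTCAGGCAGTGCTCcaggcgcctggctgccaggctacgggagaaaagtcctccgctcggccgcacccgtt

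RefSeq promoter windows, each 250 bases before to 50 after a start, were at hand for 39 of the 42 genes, 52 windows in all. CCGGAAG, searched on both strands, lay in 8 of these 52 windows and in 10.3% of the 35116 windows of all genes. The 8 genes that hold it are CPT2, DLST, ECI1, ETFB, IDH3B, IDH3G, MDH2 and SLC25A20. In MDH2 it began 113 and 69 bases before the start and in IDH3B 40 bases before it. AAGGTCA lay in 1 of the 52 windows, that of SUCLA2, beginning 183 bases before the start, and in 3.92% of all windows. GCGCATGC, the core of the NRF1 site, lay in 2 of the 52, of CPT1C and DLD, and in 3.05% of all windows. CACGTG, the E-box, lay in 1 of the 52, of PDHB, and in 7.26% of all windows. These motifs do not overlap one another, and a match is a description of letters, not a site in use. The starts of HADHA and HADHB lie 307 bases apart on opposite strands of chromosome 2, and their windows share 194 bases.

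Genes of pyruvate entry rose in both clones, with the exception of the carboxylase PC. PDHA1 encodes the alpha subunit of the pyruvate dehydrogenase E1 enzyme, which removes carbon dioxide from pyruvate. PDHA1 stood at 279, 273 and 298 CPM in the SC10 libraries, at 293, 293 and 299 CPM in the SC07 libraries and at 139, 140.5 and 139 CPM in the SC01 libraries. Every library of SC10 and SC07 lay above every SC01 library, and the log2 change was 1.02 ± 0.04 in SC10 and 1.08 ± 0.04 in SC07 against SC01 (± SE; edgeR adjusted p = 8.83e-18 and 2.49e-18). DLAT encodes the E2 core that passes the acetyl group to coenzyme A. DLAT stood at 143, 141 and 133 CPM in the SC10 libraries, at 108, 109.6 and 111 CPM in the SC07 libraries and at 66.8, 69.2 and 70.0 CPM in the SC01 libraries. The 3 clones were in order without overlap, with SC10 highest, and DLAT was 0.34 ± 0.04 higher in SC10 than in SC07 on the log2 scale (edgeR adjusted p = 2.89e-07). The changes against SC01 were 1.02 ± 0.05 in SC10 and 0.67 ± 0.05 in SC07. The beta subunit PDHB rose less than PDHA1, by 0.44 ± 0.05 in SC10 and 0.47 ± 0.05 in SC07. DLD, the E3 subunit shared with the oxoglutarate complex, rose by 0.62 ± 0.05 and 0.72 ± 0.05 in the same order.

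Pyruvate reaches the matrix through a carrier made of MPC1 and MPC2, and both subunits rose. MPC1 stood at 21.1, 19.6 and 23.5 CPM in the SC10 libraries, at 20.5, 20.5 and 21.2 CPM in the SC07 libraries and at 10.7, 10.1 and 11.2 CPM in the SC01 libraries. MPC2 stood at 44.5, 41.7 and 44.9 CPM in the SC10 libraries, at 44.7, 44.6 and 45.6 CPM in the SC07 libraries and at 20.9, 22.2 and 23.0 CPM in the SC01 libraries. For each subunit the SC10 and SC07 libraries overlapped and all lay above SC01. The log2 change of MPC1 was 1.01 ± 0.08 in SC10 and 0.96 ± 0.08 in SC07, and that of MPC2 was 0.99 ± 0.06 and 1.03 ± 0.06. The ratio of MPC1 to MPC2 counts within a library lay between 0.471 and 0.523 in SC10, between 0.458 and 0.465 in SC07 and between 0.455 and 0.513 in SC01, so that SC10 lay above SC07 without overlap and each overlapped with SC01 (two-sided exact permutation p = 0.9 for SC10 and 0.4 for SC07 against SC01, and 0.1 for SC10 against SC07). PC, pyruvate carboxylase, supplies oxaloacetate in place of acetyl-CoA. PC stood at 36.1, 33.1 and 34.8 CPM in the SC10 libraries, at 28.9, 28.9 and 28.1 CPM in the SC07 libraries and at 31.2, 31.1 and 33.1 CPM in the SC01 libraries. Its SC07 libraries were the lowest without overlap and its SC10 and SC01 libraries overlapped. PC fell in SC07 by -0.15 ± 0.06 against SC01 (edgeR adjusted p = 0.0257) and stood at 0.12 ± 0.06 in SC10 (adjusted p = 0.059). The fall in SC07 lost the threshold without SC07 replicate 2, SC07 replicate 3 or SC01 replicate 3, and with no filter on low counts. PC passed it as higher in SC10 without SC01 replicate 3, SC07 replicate 2 or SC10 replicate 2, and with scaling from nuclear genes only.

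The cycle's own matrix enzymes rose unevenly, and subunits of a single enzyme parted. IDH3A (chr15:78131498-78171949) encodes the catalytic subunit of the NAD-dependent isocitrate dehydrogenase, IDH3B (chr20:2658395-2664219) and IDH3G the other 2 subunits. IDH3A stood at 162, 159.9 and 161 CPM in the SC10 libraries, at 171, 172 and 166 CPM in the SC07 libraries and at 46.5, 45.9 and 47.2 CPM in the SC01 libraries. IDH3B stood at 129, 128 and 142 CPM in the SC10 libraries, at 159.8, 158 and 166 CPM in the SC07 libraries and at 153, 148 and 164 CPM in the SC01 libraries. IDH3A in SC10 and SC07 lay far above SC01 in every library, at 3.46-fold and 3.64-fold, whereas IDH3B was lowest in SC10 and overlapped between SC07 and SC01. The log2 change of IDH3A was 1.79 ± 0.04 in SC10 and 1.86 ± 0.04 in SC07 (edgeR adjusted p = 5.13e-23 and 1.95e-23). IDH3B fell in SC10 at -0.22 ± 0.05 (adjusted p = 0.000258) and stood at 0.06 ± 0.05 in SC07 (adjusted p = 0.304). IDH3G lay between its partners, at 0.63 ± 0.05 in SC10 and 0.51 ± 0.05 in SC07. The ratio of IDH3A to IDH3B counts within a library was 1.14 to 1.26 in SC10, 1.0 to 1.09 in SC07 and 0.288 to 0.311 in SC01 (two-sided exact permutation p = 0.1 for either clone against SC01, the smallest p that 3 against 3 libraries allow). This pair was added after its values had been seen.

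Succinyl-CoA ligase showed the same kind of split among its subunits. SUCLG1 is the alpha subunit common to both forms of the enzyme, SUCLA2 the beta subunit of the ATP-forming one and SUCLG2 that of the GTP-forming one. SUCLG1 stood at 305, 293 and 339 CPM in the SC10 libraries, at 335, 326 and 338 CPM in the SC07 libraries and at 131, 136 and 140.4 CPM in the SC01 libraries. SUCLA2 stood at 83.0, 87.1 and 90.6 CPM in the SC10 libraries, at 103, 111 and 99.8 CPM in the SC07 libraries and at 48.5, 42.2 and 45.3 CPM in the SC01 libraries. SUCLG2 stood at 57.4, 56.8 and 58.5 CPM in the SC10 libraries, at 54.6, 55.1 and 60.3 CPM in the SC07 libraries and at 58.1, 61.1 and 56.6 CPM in the SC01 libraries. SUCLG1 and SUCLA2 lay above SC01 in every SC10 and SC07 library, while all 3 clones overlapped in SUCLG2. SUCLG1 rose by 1.2 ± 0.05 in SC10 and 1.29 ± 0.05 in SC07, and SUCLA2 by 0.94 ± 0.06 and 1.21 ± 0.06 (edgeR adjusted p = 1.96e-14 and 6.57e-17). SUCLG2 stood at -0.03 ± 0.05 and -0.05 ± 0.05 (adjusted p = 0.678 and 0.425), but with scaling by library totals alone it passed the threshold as lower in both clones. The SUCLA2 to SUCLG2 ratio of counts was 1.45 to 1.55 in SC10, 1.66 to 2.02 in SC07 and 0.691 to 0.836 in SC01, without overlap (two-sided exact permutation p = 0.1 for each pair of clones).

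The remaining matrix enzymes mostly rose, and more in SC07. Citrate synthase, CS, joins acetyl-CoA to oxaloacetate at the cycle's entry. CS averaged 491 ± 4.9 CPM in SC10, 629 ± 19 CPM in SC07 and 396 ± 4.3 CPM in SC01. OGDH averaged 377 ± 18 CPM in SC10, 450.3 ± 15 CPM in SC07 and 209.9 ± 5.7 CPM in SC01. OGDH and DLST form, with DLD, the oxoglutarate dehydrogenase complex, and FH turns fumarate to malate. DLST averaged 152 ± 2.4 CPM in SC10, 177 ± 4.5 CPM in SC07 and 120.0 ± 3.3 CPM in SC01. FH averaged 175 ± 8.7 CPM in SC10, 199 ± 3.4 CPM in SC07 and 118 ± 0.24 CPM in SC01. All 4 were highest in SC07 and lowest in SC01, and SC10 lay below SC07 in each (edgeR adjusted p between 2.23e-08 and 0.000823). The log2 change of OGDH against SC01 was 0.84 ± 0.04 in SC10 and 1.10 ± 0.04 in SC07, the largest of these 4.

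The NADP-dependent isocitrate dehydrogenases IDH1, in the cytosol, and IDH2, in the matrix, changed in opposite directions. IDH1 stood at 469.7, 462 and 479 CPM in the SC10 libraries, at 722, 727 and 717 CPM in the SC07 libraries and at 213, 212 and 228 CPM in the SC01 libraries. IDH2 stood at 41.5, 38.9 and 39.9 CPM in the SC10 libraries, at 35.7, 34.3 and 38.5 CPM in the SC07 libraries and at 46.1, 45.6 and 47.7 CPM in the SC01 libraries. IDH1 put the clones in the order SC07, SC10 and SC01 without overlap, and IDH2 was highest in SC01 and lowest in SC07. IDH1 rose by 1.11 ± 0.04 in SC10 and 1.73 ± 0.04 in SC07 on the log2 scale (edgeR adjusted p = 7.18e-19 and 3.79e-23). IDH2 fell in both, at -0.21 ± 0.05 in SC10 and -0.36 ± 0.06 in SC07 (adjusted p = 0.00135 and 2.06e-06). A library held 11.3 to 12 IDH1 counts per IDH2 count in SC10, 18.6 to 21.2 in SC07 and 4.62 to 4.78 in SC01 (two-sided exact permutation p = 0.1 for each pair of clones). ACO1, the cytosolic aconitase, which without its iron-sulfur cluster binds iron-regulated mRNAs, rose less than IDH1. ACO1 stood at 103, 107 and 108 CPM in the SC10 libraries, at 105, 103 and 105 CPM in the SC07 libraries and at 80.6, 78.0 and 78.4 CPM in the SC01 libraries. Its SC10 and SC07 libraries overlapped and all exceeded SC01, at 0.42 ± 0.04 in SC10 and 0.40 ± 0.04 in SC07.

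Malate dehydrogenase also parted between the compartments. MDH1 (chr2:63588609-63607197) is the cytosolic enzyme and MDH2 (chr7:76048051-76067508) the matrix enzyme of the cycle. MDH1 stood at 842, 798 and 887 CPM in the SC10 libraries, at 824, 831 and 832 CPM in the SC07 libraries and at 216, 223 and 226 CPM in the SC01 libraries. MDH2 stood at 734, 718 and 777 CPM in the SC10 libraries, at 837, 781 and 857 CPM in the SC07 libraries and at 848, 876 and 867 CPM in the SC01 libraries. MDH1 overlapped between SC10 and SC07 and was lowest in SC01 by a wide margin, and MDH2 in SC10 lay below SC01 in every library. MDH1 was 3.80-fold higher in SC10 and 3.74-fold higher in SC07 than in SC01, at log2 changes of 1.93 ± 0.04 and 1.90 ± 0.04 (edgeR adjusted p = 1.16e-23 and 1.2e-23). MDH2 fell in SC10 at -0.22 ± 0.04 (adjusted p = 8.29e-05) and stood at -0.07 ± 0.04 in SC07 (adjusted p = 0.192). It passed the threshold as lower in SC07 with scaling by library totals alone. MDH1 counts over MDH2 counts were 1.11 to 1.15 in SC10, 0.971 to 1.06 in SC07 and 0.255 to 0.261 in SC01 (two-sided exact permutation p = 0.1 for each pair of clones).

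Aspartate aminotransferase, the shuttle's other enzyme, rose in both compartments, and more in the cytosol. GOT1 stood at 303, 288 and 324 CPM in the SC10 libraries, at 272, 268 and 289 CPM in the SC07 libraries and at 68.9, 67.2 and 69.2 CPM in the SC01 libraries. GOT2 stood at 272, 274 and 280.2 CPM in the SC10 libraries, at 308, 294 and 320.5 CPM in the SC07 libraries and at 145, 149 and 146 CPM in the SC01 libraries. The cytosolic GOT1 was highest in SC10, although its lowest SC10 library lay below the highest SC07 library, and lowest in SC01, and the mitochondrial GOT2 was highest in SC07. GOT1 (chr10:99396870-99431569) gained most of the 42 genes in either clone, at 2.16 ± 0.05 in SC10 and 2.01 ± 0.05 in SC07 (edgeR adjusted p = 9.24e-24 and 3.06e-23), which is 4.46-fold and 4.04-fold. GOT2 gained 0.91 ± 0.04 and 1.07 ± 0.04. The GOT1 to GOT2 count ratio was 1.05 to 1.16 in SC10, 0.883 to 0.911 in SC07 and 0.452 to 0.477 in SC01 (two-sided exact permutation p = 0.1 for each pair of clones). GLUD1, glutamate dehydrogenase, releases ammonia from glutamate to feed oxoglutarate into the cycle. GLUD1 stood at 145, 142 and 147 CPM in the SC10 libraries, at 132, 129 and 126 CPM in the SC07 libraries and at 146, 143 and 148 CPM in the SC01 libraries. SC07 was lowest without overlap and the SC10 and SC01 libraries overlapped. GLUD1 fell in SC07 at -0.17 ± 0.04 (adjusted p = 0.000744) and stood at -0.01 ± 0.04 in SC10 (adjusted p = 0.861). With scaling by library totals alone it fell in SC10 too.

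**Figure D2:**
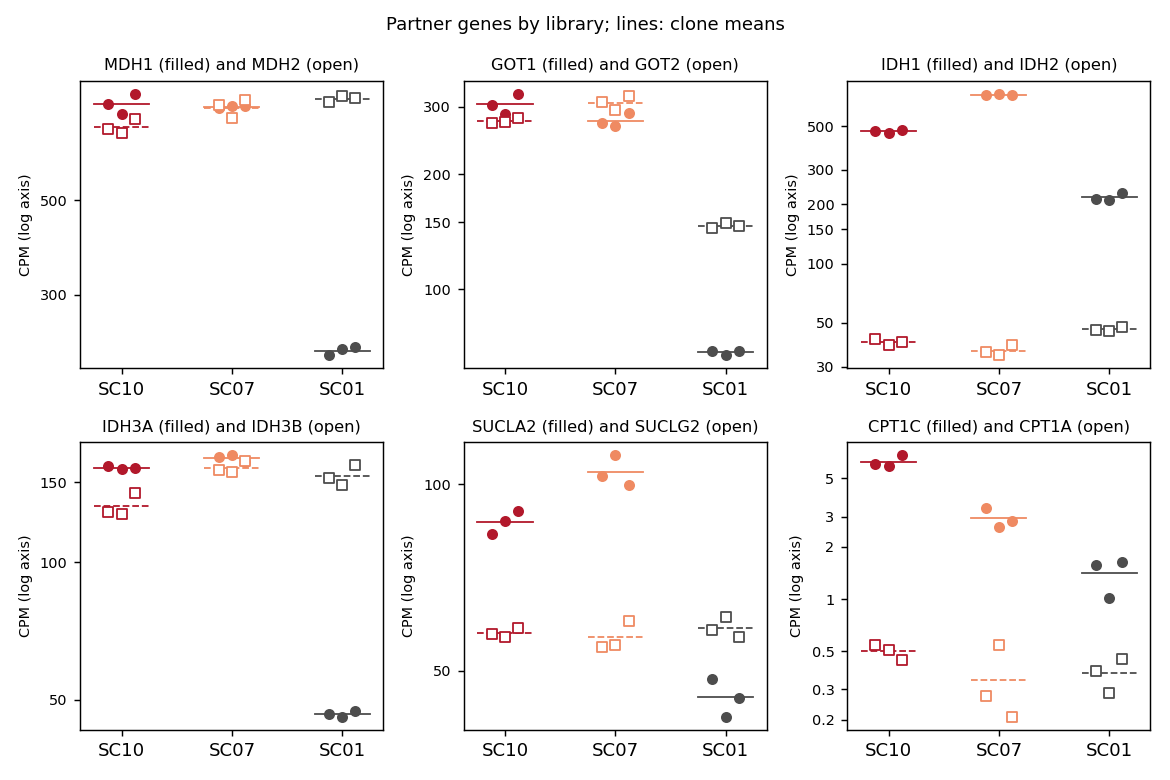
CPM of partner genes in each library on log axes, with the first gene of a pair filled, the second open, and lines at the clone means. MDH1, GOT1, IDH1, IDH3A, SUCLA2 and CPT1C are lowest in SC01, while MDH2, IDH3B and SUCLG2 stay within a narrow range, IDH2 is highest in SC01 and CPT1A is low and overlapping in every clone.

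Fatty acids enter mitochondria through the carnitine shuttle, and the genes CPT1A and CPT1B of its outer enzyme were low in every clone. The related gene CPT1C had a higher CPM than either in SC10 and SC07. CPT1A is the liver form of carnitine palmitoyltransferase I, CPT1B the muscle form and CPT1C (chr19:49690898-49713731) the brain form, which sits in the endoplasmic reticulum and has little transferase activity. CPT1A stood at 0.545, 0.504 and 0.443 CPM in the SC10 libraries, at 0.274, 0.541 and 0.209 CPM in the SC07 libraries and at 0.385, 0.284 and 0.449 CPM in the SC01 libraries. These rest on 52 counts over the SC10 libraries, 37 over the SC07 libraries and 38 over the SC01 libraries, where 3 counts in a library correspond to 0.0773 to 0.0948 CPM. CPT1A was thus barely detected in any clone, its libraries overlapped, and its log2 change of 0.41 ± 0.40 in SC10 and -0.10 ± 0.42 in SC07 did not pass the threshold (edgeR adjusted p = 0.382 and 0.849), with an error that allows a sizeable change either way. CPT1B averaged 0.927 ± 0.33 CPM in SC10, 0.841 ± 0.24 CPM in SC07 and 1.27 ± 0.22 CPM in SC01. The CPT1B libraries overlapped in every pair of clones, at -0.46 ± 0.28 in SC10 and -0.58 ± 0.28 in SC07 against SC01 (adjusted p = 0.152 and 0.0772), and 66.4% of its exon bases are shared with the read-through gene CHKB-CPT1B. CPT1B passed the threshold as lower in SC10 without SC10 replicate 3, and in SC07 without SC07 replicate 2 and with library totals alone. CPT1C stood at 6.08, 5.88 and 6.76 CPM in the SC10 libraries, at 3.35, 2.60 and 2.84 CPM in the SC07 libraries and at 1.57, 1.01 and 1.65 CPM in the SC01 libraries. The clones were in the order SC10, SC07 and SC01 without overlap, and CPT1C was the strongest gain of SC10 over SC07 among the 42 genes, at 1.09 ± 0.15 (adjusted p = 7.78e-07). Against SC01 the gain was 2.14 ± 0.17 in SC10 and 1.04 ± 0.18 in SC07. The CPT1A to CPT1C count ratio was 0.0675 to 0.0917 in SC10, 0.0785 to 0.212 in SC07 and 0.252 to 0.292 in SC01 (two-sided exact permutation p = 0.1 for either clone against SC01 and 0.6 for SC10 against SC07).

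On the matrix side, CPT2 frees the acyl group from carnitine and SLC25A20 carries acylcarnitine across the inner membrane. CPT2 stood at 18.9, 20.2 and 19.1 CPM in the SC10 libraries, at 25.1, 26.8 and 27.1 CPM in the SC07 libraries and at 12.9, 12.8 and 13.6 CPM in the SC01 libraries. SLC25A20 stood at 18.8, 20.7 and 21.4 CPM in the SC10 libraries, at 22.9, 20.8 and 23.2 CPM in the SC07 libraries and at 17.7, 21.6 and 19.8 CPM in the SC01 libraries. CPT2 had the order SC07, SC10 and SC01 without overlap, while the SLC25A20 libraries overlapped in every pair of clones. CPT2 rose by 0.57 ± 0.07 in SC10 and 1.0 ± 0.07 in SC07 (edgeR adjusted p = 5.59e-08 and 4.52e-13). SLC25A20 stood at 0.05 ± 0.08 in SC10 (adjusted p = 0.623) and at 0.18 ± 0.08 in SC07 (adjusted p = 0.0419). The SC07 call was lost without SC01 replicate 1, SC01 replicate 3, SC07 replicate 1 or SC07 replicate 3, and also with DESeq2, with upper-quartile scaling or library totals alone, with a filter of 1 CPM in 3 libraries and with a non-robust fit.

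The beta-oxidation enzymes proper rose nearly as a block, 8 of 9 in SC10 and 9 of 9 in SC07. Each round begins with an acyl-CoA dehydrogenase, ACADVL for very long chains, ACADM for medium and ACADS for short ones. ACADVL stood at 359.8, 348 and 376 CPM in the SC10 libraries, at 405, 409.7 and 407 CPM in the SC07 libraries and at 176, 182 and 185 CPM in the SC01 libraries. ACADS stood at 24.9, 23.1 and 25.5 CPM in the SC10 libraries, at 34.1, 36.1 and 37.4 CPM in the SC07 libraries and at 16.1, 16.6 and 16.6 CPM in the SC01 libraries. Both were highest in SC07 and lowest in SC01 without overlap, as was ACADM. ACADVL gained 1.0 ± 0.04 in SC10 and 1.17 ± 0.04 in SC07 (edgeR adjusted p = 1.1e-17 and 2.99e-19). ACADS gained 0.58 ± 0.07 in SC10 and 1.13 ± 0.06 in SC07, and was -0.55 ± 0.06 in SC10 against SC07 (adjusted p = 2.5e-08), a shortfall exceeded only by that of IDH1 among the 42. ACADM averaged 108 ± 3.3 CPM in SC10, 122 ± 8.5 CPM in SC07 and 56.7 ± 1.0 CPM in SC01.

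The trifunctional protein, built of HADHA and HADHB, carries out the later steps for long chains, and its genes share the promoter shown above. HADHA stood at 674, 652 and 707 CPM in the SC10 libraries, at 641, 635 and 663 CPM in the SC07 libraries and at 352, 361 and 364 CPM in the SC01 libraries. HADHB stood at 262, 256 and 277 CPM in the SC10 libraries, at 293, 285 and 297 CPM in the SC07 libraries and at 137, 142 and 136 CPM in the SC01 libraries. HADHA overlapped between SC10 and SC07 and HADHB was highest in SC07, and both were lowest in SC01 in every library. The log2 change of HADHA was 0.92 ± 0.04 in SC10 and 0.85 ± 0.04 in SC07, and that of HADHB 0.94 ± 0.04 and 1.08 ± 0.04 (edgeR adjusted p between 2.77e-18 and 3.19e-16 for the 4 changes). HADHA counts over HADHB counts were 2.55 to 2.57 in SC10, 2.18 to 2.23 in SC07 and 2.55 to 2.66 in SC01 (two-sided exact permutation p = 0.6 for SC10 and 0.1 for SC07 against SC01), a pair added after its values had been seen. HADH, the dehydrogenase for shorter chains, departed from this block in SC10. HADH averaged 58.3 ± 1.4 CPM in SC10, 73.7 ± 1.8 CPM in SC07 and 56.8 ± 2.6 CPM in SC01. It rose in SC07 at 0.38 ± 0.05 (adjusted p = 1.5e-07) and stood at 0.04 ± 0.05 in SC10 (adjusted p = 0.509).

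ACAA2, the thiolase that releases acetyl-CoA, was the largest gain of the beta-oxidation genes in both clones. ACAA2 stood at 80.7, 78.7 and 87.0 CPM in the SC10 libraries, at 74.2, 74.9 and 73.0 CPM in the SC07 libraries and at 30.8, 31.7 and 32.1 CPM in the SC01 libraries. The order was SC10, SC07 and SC01 without overlap, with gains of 1.38 ± 0.05 in SC10 and 1.23 ± 0.05 in SC07 (edgeR adjusted p = 5.41e-19 and 7.26e-18). The isomerases ECI1 and ECI2 shift the double bond of unsaturated chains. ECI1 stood at 56.6, 50.6 and 55.2 CPM in the SC10 libraries, at 56.1, 53.5 and 60.8 CPM in the SC07 libraries and at 26.1, 28.2 and 26.4 CPM in the SC01 libraries. ECI2 stood at 68.8, 62.2 and 74.5 CPM in the SC10 libraries, at 73.3, 72.4 and 74.7 CPM in the SC07 libraries and at 56.3, 56.4 and 55.1 CPM in the SC01 libraries. Both overlapped between SC10 and SC07 and exceeded SC01 in every library, ECI1 by 1.01 ± 0.06 in SC10 and 1.08 ± 0.06 in SC07, and ECI2 by 0.29 ± 0.05 and 0.39 ± 0.05. The ECI1 to ECI2 count ratio was 0.741 to 0.824 in SC10, 0.739 to 0.815 in SC07 and 0.463 to 0.499 in SC01 (two-sided exact permutation p = 0.1 for either clone against SC01).

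Electrons from the acyl-CoA dehydrogenase step pass through the electron transfer flavoprotein, of subunits ETFA and ETFB, to ETFDH, which hands them to ubiquinone. ETFDH stood at 38.1, 36.6 and 39.3 CPM in the SC10 libraries, at 46.1, 46.6 and 41.0 CPM in the SC07 libraries and at 14.4, 15.4 and 14.8 CPM in the SC01 libraries. ETFA stood at 125, 119.6 and 128 CPM in the SC10 libraries, at 128, 128 and 130.2 CPM in the SC07 libraries and at 107, 107 and 111 CPM in the SC01 libraries. ETFB stood at 37.2, 35.6 and 39.7 CPM in the SC10 libraries, at 41.6, 40.1 and 45.7 CPM in the SC07 libraries and at 42, 44.6 and 46.0 CPM in the SC01 libraries. ETFDH and ETFA exceeded SC01 in every SC10 and SC07 library, and ETFB in SC10 lay below SC01 and overlapped between SC07 and SC01. ETFDH rose by 1.35 ± 0.06 in SC10 and 1.58 ± 0.06 in SC07 (edgeR adjusted p = 1.63e-16 and 3.9e-18), the largest gain of a fatty acid oxidation gene in SC07. ETFA rose by 0.20 ± 0.04 and 0.25 ± 0.04, and ETFB fell in SC10 at -0.24 ± 0.06 (adjusted p = 0.00103) and stood at -0.06 ± 0.06 in SC07 (adjusted p = 0.415). With scaling by library totals alone ETFA no longer passed in SC10 and ETFB fell in SC07. ETFA counts over ETFB counts were 3.23 to 3.36 in SC10, 2.85 to 3.18 in SC07 and 2.39 to 2.55 in SC01 (two-sided exact permutation p = 0.1 for each pair of clones).

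**Figure D3:**
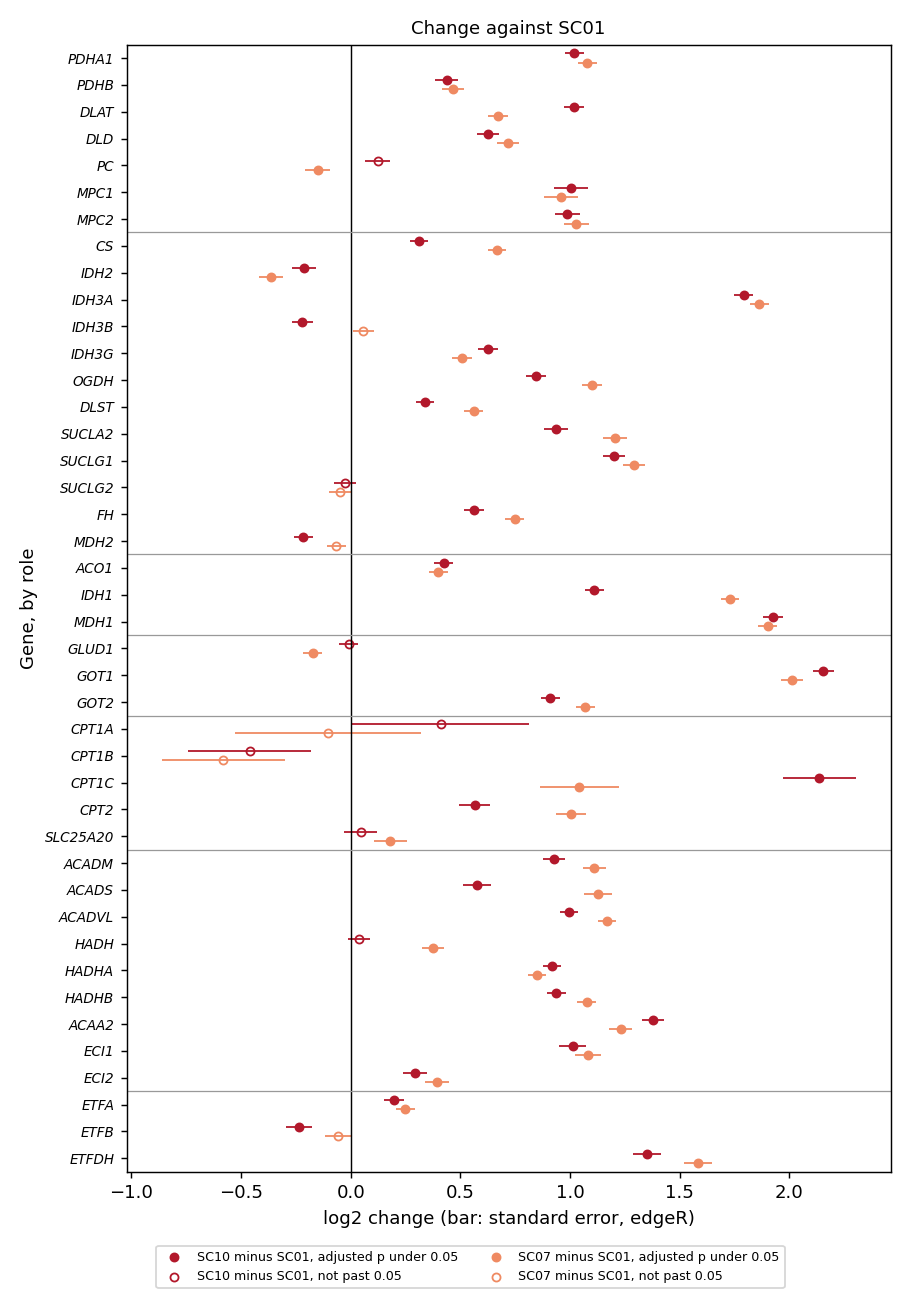
Log2 change against SC01 (points) with the standard error from edgeR (bars) for each gene, ordered by role, SC10 above SC07 in each pair; filled points have an adjusted p under 0.05. Most points lie between 0.2 and 2, those of GOT1, MDH1, IDH3A and, in SC10, CPT1C furthest right, and the wide bars belong to the low genes CPT1A, CPT1B and CPT1C.

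Set directly against each other, SC10 and SC07 differed in 25 of the 42 genes, with SC10 more often the lower. In SC10 against SC07, 8 of the 42 were higher (19.0%), where 24.8% of all genes tested were, and 17 were lower (40.5%), where 23% of all genes were. The median log2 change was -0.08, beside -0.01 for all genes. The higher genes were DLAT, PC, IDH2, IDH3G, GLUD1, GOT1, CPT1C and ACAA2, and only CPT1C reached 2-fold. Among the fatty acid oxidation genes, 2 were higher and 8 lower in SC10, and among the cycle's matrix enzymes 2 were higher and 7 lower. The lower genes ran from HADHB at -0.14 ± 0.04 to IDH1 at -0.62 ± 0.04 (edgeR adjusted p = 0.00787 and 8.46e-13). Of the 31 genes that rose in both clones against SC01, 13 were lower and 5 higher in SC10 than in SC07. IDH2, IDH3G and GOT1 lost their call without SC07 replicate 2, leaving 5 higher, and IDH2 and IDH3G also without SC07 replicate 1 or SC10 replicate 1. With no filter on low counts IDH2 and IDH3G lost it too, leaving 6 higher, and with the 2 clones fitted alone IDH3G did, leaving 7. HADHB lost its call as lower without SC10 replicate 2, and ETFB without SC10 replicate 1, SC10 replicate 2 or SC07 replicate 3. Without SC10 replicate 3, 21 genes were lower, with PDHA1, DLD, SUCLG1 and ECI2 added.

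**Figure D4:**
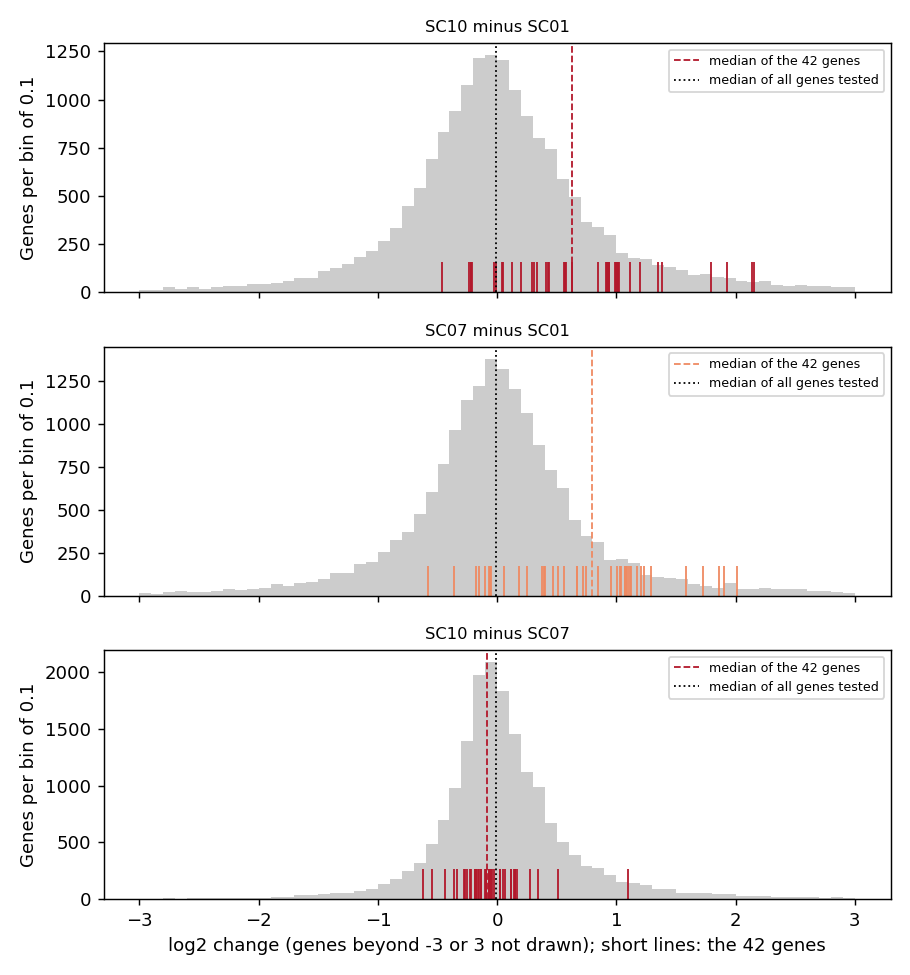
Histograms of the log2 change of all genes tested (grey, genes per bin of 0.1 on the y axis) with the 42 genes as short coloured lines and both medians as vertical lines. The median of the 42 genes sits right of that of all genes against SC01, at 0.63 in SC10 and 0.80 in SC07, and near it, at -0.08, in SC10 against SC07.

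Per kilobase of exon, MDH2 was the most abundant of the 42 in every clone, at 204 CPM per kb in SC10, 227 in SC07 and 237 in SC01. The length used is that of all annotated exons of a gene together, not that of a transcript, and the ranks depend on it. Before division by length, MDH1 averaged 842 CPM in SC10 and 829 CPM in SC07, against 743 and 825 CPM for MDH2. MDH1 reached 169 CPM per kb in SC10 and 166 in SC07, against 44.4 in SC01, which placed it beside HADHA at 155, 147 and 81.8 CPM per kb. IDH1 moved likewise, at 99.6 CPM per kb in SC10, 153 in SC07 and 46.1 in SC01. At the low end stood the 3 forms of CPT1, led by CPT1C at 1.06 CPM per kb in SC10, 0.500 in SC07 and 0.240 in SC01, the last below CPT1B at 0.310. CPT2, next above them, stood at 1.86, 2.52 and 1.25 CPM per kb.

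The cycle enzymes outside the 42 rose as well. For the gene lists from here on, the shares of all genes tested were 33.5% rising and 32.4% falling in SC10, and 31.5% rising and 30.5% falling in SC07. Of 10 tested genes on that list, 9 rose in each clone against SC01, with median log2 changes of 1.17 in SC10 and 0.96 in SC07. They include the 4 succinate dehydrogenase genes, named here after their values were seen. OGDHL, a relative of OGDH, had the largest gain of the list's well expressed genes, at 2.64 ± 0.05 in SC10 and 2.44 ± 0.05 in SC07 (edgeR adjusted p = 4.13e-25 and 2.03e-24). ME2, which makes pyruvate from malate in the matrix, gained 1.60 ± 0.05 and 1.46 ± 0.05, and PCK2, which makes phosphoenolpyruvate there, 1.39 ± 0.08 and 0.62 ± 0.08.

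Among 11 regulators and cofactor enzymes of pyruvate dehydrogenase, 7 rose and 1 fell in SC10 and 7 rose and 2 fell in SC07. PDK4 averaged 1185 ± 26 CPM in SC10, 922 ± 26 CPM in SC07 and 672 ± 8.9 CPM in SC01. This kinase, which switches the complex off, was thus the most abundant in SC10, at 0.82 ± 0.04 in SC10 and 0.46 ± 0.04 in SC07 against SC01 (edgeR adjusted p = 2.71e-16 and 8.93e-11). PDK2, a kinase of the same kind, gained 0.69 ± 0.10 and 0.83 ± 0.10, and PDHX, the subunit that binds E3 to the complex, 0.99 ± 0.05 and 0.89 ± 0.05. The genes that fell are named here after their values were seen. The kinase PDK3 fell in both clones, at -0.13 ± 0.05 in SC10 and -0.23 ± 0.05 in SC07. The phosphatase PDP1 rose by 0.11 ± 0.04 in SC10 and fell at -0.68 ± 0.04 in SC07.

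Carriers of the malate-aspartate shuttle also rose in both clones, by unlike amounts. SLC25A11 exchanges oxoglutarate for malate, and SLC25A12 and SLC25A13 exchange aspartate for glutamate. SLC25A11 averaged 209 ± 7.7 CPM in SC10, 216 ± 8.8 CPM in SC07 and 114 ± 3.2 CPM in SC01. SLC25A12 averaged 88.5 ± 0.40 CPM in SC10, 77.9 ± 0.69 CPM in SC07 and 40.3 ± 0.94 CPM in SC01. Both exceeded SC01 in every SC10 and SC07 library, SLC25A11 by 0.87 ± 0.05 in SC10 and 0.92 ± 0.05 in SC07 and SLC25A12 by 1.14 ± 0.05 and 0.95 ± 0.05. SLC25A13 averaged 238 ± 6.6 CPM in SC10, 263 ± 5.9 CPM in SC07 and 218 ± 1.5 CPM in SC01. This carrier, named after its values were seen, rose less, by 0.12 ± 0.04 in SC10 and 0.27 ± 0.04 in SC07 (edgeR adjusted p = 0.0108 and 2.39e-06). The dicarboxylate carrier SLC25A10 gained 0.65 ± 0.07 and 0.94 ± 0.07. Of the 7 carriers on the list, 6 rose in SC10, and 5 rose and 1 fell in SC07.

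Of 6 tested genes of glutamine use, 3 rose in SC10 and 4 in SC07, and the others did not pass the threshold. GLUL, which makes glutamine, gained 0.86 ± 0.05 in SC10 and 1.5 ± 0.05 in SC07. GLUD2, an intronless copy of GLUD1, gained 1.23 ± 0.09 and 1.01 ± 0.09 on 13.3 ± 0.19 CPM in SC10, 11.5 ± 0.72 CPM in SC07 and 5.69 ± 0.35 CPM in SC01, and how reads were shared with GLUD1 is not given in the sources used here.

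Of 14 tested genes of fatty acid uptake and activation, 9 rose and 3 fell in SC10 (64.3% and 21.4%), and 7 rose and 3 fell in SC07 (50% and 21.4%). ACSL3, which charges fatty acids with coenzyme A, was abundant and gained 1.58 ± 0.05 in SC10 and 1.31 ± 0.05 in SC07. ACSL3 averaged 837 ± 16 CPM in SC10, 694 ± 47 CPM in SC07 and 280.2 ± 2.2 CPM in SC01. SLC27A3, a fatty acid transport protein, gained 0.95 ± 0.08 and 1.36 ± 0.07. FABP5 averaged 135 ± 11 CPM in SC10, 39.3 ± 1.3 CPM in SC07 and 40.2 ± 2.1 CPM in SC01. This fatty acid binding protein rose in SC10 at 1.75 ± 0.06 and stood at -0.03 ± 0.06 in SC07 against SC01, and at 1.78 ± 0.06 in SC10 against SC07 (edgeR adjusted p = 1.17e-19).

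In the remaining beta-oxidation list, 10 of 15 tested genes rose in each clone, and 1 fell in SC10. DECR1, which prepares unsaturated chains for oxidation, led with 1.62 ± 0.06 in SC10 and 1.39 ± 0.06 in SC07, followed by PCCA of propionate metabolism at 1.32 ± 0.09 and 1.01 ± 0.09 and HIBCH of valine breakdown at 1.15 ± 0.08 and 0.82 ± 0.08. Of 11 tested genes of oxidation in peroxisomes, 8 rose and 2 fell in SC10, and 9 rose and 1 fell in SC07. EHHADH, the peroxisomal bifunctional enzyme, gained 1.65 ± 0.07 and 1.27 ± 0.07, and PEX11A, which takes part in peroxisome division, 0.67 ± 0.11 and 0.76 ± 0.11.

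Of 12 genes of fatty acid synthesis, 7 rose and 3 fell in SC10 (58.3% and 25%), and 7 rose and 2 fell in SC07 (58.3% and 16.7%). The desaturase SCD averaged 2110 ± 115 CPM in SC10, 2103 ± 45 CPM in SC07 and 970.3 ± 22 CPM in SC01, its relative SCD5 gained 1.40 ± 0.06 and 1.32 ± 0.06, and the elongase ELOVL6 0.97 ± 0.06 and 1.05 ± 0.06. Among ketone body genes, BDH1, which interconverts the ketone bodies, gained 1.71 ± 0.10 in SC10 and 1.41 ± 0.10 in SC07. OXCT1, which activates ketone bodies for use, fell, at -0.45 ± 0.10 in SC10 and -1.34 ± 0.11 in SC07 (edgeR adjusted p = 0.000313 and 6.1e-11).

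Of 14 complex I subunits, 11 rose in SC10 and 13 in SC07, with medians of 0.55 and 0.57 and NDUFS1 in the lead at 1.28 ± 0.04 and 1.15 ± 0.04. NDUFV1 gained 0.89 ± 0.05 and 0.72 ± 0.05 and NDUFS3 0.89 ± 0.05 and 0.85 ± 0.05. Of 17 glycolytic enzymes, 7 rose and 6 fell in SC10, shares of 41.2% and 35.3% that are near the 33.5% and 32.4% of all genes. In SC07, 14 of them rose and 3 fell (82.4% and 17.6%), where 31.5% and 30.5% of all genes did, and the medians were 0.03 in SC10 and 0.27 in SC07. HK2, the hexokinase typical of many tumours, averaged 91.1 ± 2.6 CPM in SC10, 64.4 ± 2.7 CPM in SC07 and 236 ± 3.6 CPM in SC01 and changed by -1.37 ± 0.04 and -1.88 ± 0.05 against SC01. ALDOC gained 1.62 ± 0.06 and 1.24 ± 0.06, and ENO2 averaged 0.929 ± 0.085 CPM in SC10, 30.8 ± 1.3 CPM in SC07 and 26.3 ± 0.52 CPM in SC01. Mitochondrially encoded mRNA moved the same way, its 13 genes summing to between 96900 and 101300 CPM in SC10, 87290 and 91170 CPM in SC07 and 59870 and 61830 CPM in SC01. With scaling taken from nuclear genes only, the median log2 change of the 42 genes was 0.63 in SC10 and 0.80 in SC07.

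Of the 15 tested transcription regulators of these pathways, 6 rose and 7 fell in SC10 (40% and 46.7%). In SC07, 6 rose and 8 fell (40% and 53.3%). The share rising was thus near the 33.5% and 31.5% of all genes. The share falling was above their 32.4% and 30.5%. PPARGC1A (chr4:23755041-23904089) had the list's largest gain in SC10, while in SC07 the highest log2 change on the list was 4.52, in another gene. The lowest log2 changes on the list were -3.015 in SC10 and -2.41 in SC07. PPARGC1A stood at 451, 456 and 393 CPM in the SC10 libraries, at 474, 469.9 and 461 CPM in the SC07 libraries and at 30.4, 31.0 and 29.1 CPM in the SC01 libraries. All SC10 and SC07 libraries exceeded every SC01 library more than any of the 42 genes did, at 3.85 ± 0.06 in SC10 and 3.96 ± 0.06 in SC07 (edgeR adjusted p = 6.22e-28 and 2.05e-28). Its relative PPARGC1B fell in both clones, at -1.10 ± 0.08 and -1.04 ± 0.08. PPARG, a nuclear receptor for fatty acid ligands, stood at -0.09 ± 0.10 in SC10 and -1.27 ± 0.11 in SC07 (adjusted p = 0.447 and 1.29e-10). ESRRA is the nuclear receptor whose ERR-type site was searched above and a partner of PGC-1alpha. It is named here after its values were seen and rose by 1.10 ± 0.05 in SC10 and 0.81 ± 0.05 in SC07. Other regulators on this list, among them NRF1, GABPA and MITF, were not singled out. Their values are not given here one by one. Whether these regulators take part in the changes of the 42 genes was not tested.

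Set beside the promoter letters, the 8 genes with CCGGAAG had a median log2 change of 0.19 in SC10 and 0.34 in SC07 against SC01, with 4 rising and 3 falling in SC10 and 5 rising in SC07. The 31 genes with a window but without these letters had medians of 0.92 and 0.96, with 25 rising and 1 falling in SC10 and 26 rising and 3 falling in SC07. This split was noticed after the values had been seen and is a description of these genes only.

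Reads of neighbouring genes can bear on some of these values, since strandedness of the counting was not given in the sources used here. Exons of IDH3A overlap those of the opposite-strand genes CIB2 and ACSBG1 over 38.9% of its exon bases. CIB2 averaged 34.8, 24.9 and 9.26 CPM in SC10, SC07 and SC01, which is 21.6%, 14.7% and 19.9% of the CPM of IDH3A. ECI2 (29.8%), MPC2 (22.5%) and PDHA1 (21.3%) overlapped other genes over more than 20% of exon bases too. The overlap was 19.3% for GOT1, 13.8% for ETFDH, 13.2% for GLUD1, 12% for CPT2, 10.5% for PC and 10.2% for IDH3G. The neighbours of ECI2 and PDHA1 stood at no more than 2.47% of the CPM of those genes, while others were as abundant as the gene they overlap. DCAF6 stood at 145%, 128% and 189% of the CPM of MPC2 in SC10, SC07 and SC01, PPID at 104%, 93.1% and 201% of that of ETFDH, and SSR4 at 96.7%, 103% and 178% of that of IDH3G. C1orf123 stood at 70.6%, 69.0% and 205% of the CPM of CPT2 in the same order, and the neighbours of PC and GLUD1 at no more than 49.2% of theirs. The part of overlapping reads was not tested. Pseudogenes named after 9 of the 42 genes held at most 0.790% of the counts of the gene they are named after.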

How the data were processed

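Raw counts of 60675 Ensembl genes in 9 libraries were deposited by the authors, 3 libraries to a clone, from total RNA taken with Trizol and sequenced by standard Illumina methods, per the labels. The submitters' processing notes name HISAT2, featureCounts and the genome build GRCh38. Tool versions, the release of the annotation, strandedness and how reads with more than 1 match were counted were not given in the sources used here. Such choices bear on overlapping genes and near-identical copies. Names and positions came from GENCODE 29, which held 57055 of the identifiers, and promoters from RefSeq (GRCh38.p14).

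edgeR's filterByExpr left 18009 genes. One robust quasi-likelihood model with TMM scaling was fitted to the 9 libraries (edgeR 4.0.16, R 4.3.3), with a Benjamini-Hochberg threshold of 0.05. Standard errors come from each change and its F statistic, and a log2 change is the first clone named over the second. The steps were tested on simulated counts. Partner genes were compared as count ratios within libraries. The floor of 3 counts covers counting error only. Replicate number was not used to pair libraries across clones in this model.

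The genes and lists were chosen with earlier results of these data known. Values in every library are given for the 3 genes of each role with the largest called change, those with opposite signs in SC10 and SC07, and partner genes. Other lists name up to 3 genes with at least 5 CPM in a clone. Some genes that this rule names are not reported here. The alternatives were other scalings and filters, DESeq2 1.42.0, limma-voom (limma 3.58.1), a test against a 1.5-fold change, a non-robust fit, pairs of clones alone, a block for replicate number and the removal of each library.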

Additional observations from a re-analysis of the deposited data

How the results depend on the processing

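All gains and falls called among the 42 genes kept their direction in every alternative run, and of 881 values per comparison over 21 settings, 858 in SC10 against SC01, 851 in SC07 against SC01 and 838 in SC10 against SC07 also kept their side of the threshold. Tested against a 1.5-fold change, 4192 of all genes were called in SC10 against SC01, 3703 in SC07 against SC01 and 1444 in SC10 against SC07, where 11864, 11162 and 8620 had been. These counts of all genes take rises and falls together. Of the 42 genes, 20 then rose in SC10 against SC01, 25 rose in SC07 against SC01, 1 was higher in SC10 than in SC07, and 0 fell in any of the 3 comparisons. Scaling by library totals alone moved the median of all genes to -0.12 against SC01 in both clones. Then 7 of the 42 genes fell in SC07 against SC01 in place of 3, with CPT1B, ETFB, MDH2 and SUCLG2 added. In SC10 against SC01, 6 fell in place of 4, with SUCLG2 and GLUD1 added.

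Leaving out 1 library at a time gave 31 to 32 genes higher and 4 to 5 lower in SC10 against SC01, 32 to 33 higher and 2 to 4 lower in SC07 against SC01, and 5 to 8 higher and 15 to 21 lower in SC10 against SC07, where the 5 came without SC07 replicate 2. Between 38 and 40 differed among the clones. Same-numbered libraries of different clones deviated with correlations between -0.02 and 0.043, and differently numbered ones with correlations between -0.041 and 0.022. No shared effect of the number was seen, but this cannot tell whether same-numbered libraries were prepared together. With replicate number as a block, 31 genes rose and 4 fell in SC10 against SC01, 33 rose and 3 fell in SC07 against SC01, 8 were higher and 17 lower in SC10 than in SC07, and 38 differed among the clones.

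The least certain calls are those of PC and SLC25A20 in SC07 and those below 0.2 on the log2 scale in SC10 against SC07. Depth limits CPT1A and CPT1B, at 52, 37 and 38 counts and at 96, 90 and 129 counts over the SC10, SC07 and SC01 libraries.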
